A study of Mus musculus with 8 samples.

Results

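The transcripts of the mitochondrial genome were examined in MB21 cells, a mouse medulloblastoma line. The members were all genes whose symbol begins with mt-, found by matching the gene identifiers of the deposited table to symbols. There were 37 of them among 55416 identifiers, comprising 13 coding genes, 2 rRNA genes and 22 tRNA genes. One group of 4 libraries, called DS38, came from cells kept for 5 days with 10 uM DS-1-38, a derivative of benzarone, and the other group of 4, called DMSO, came from cells given the vehicle for the same time. Cells of both groups carry a mutated Ptch gene and grew without attachment in DMEM/F12 with B27 and antibiotics, so the comparison concerns 1 line under 1 dose and 1 duration. Libraries were prepared with a kit for messenger RNA. No label says that replicates were grown apart, so p-values measure the spread between these libraries, which may be technical.

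The mitochondrial genome is a small circular molecule present in many copies per cell. Both of its strands are transcribed into long precursors, which are cut, mostly at the tRNA genes between the other genes, into mRNAs, rRNAs and tRNAs. The mRNAs encode core subunits of respiratory complexes I, III and IV and of the ATP synthase, the rRNAs build the mitochondrial ribosome, and all other subunits are imported from the cytosol. Most mitochondrial mRNAs, and the rRNAs, carry short poly(A) tails, whereas mature mitochondrial tRNAs end in CCA.

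Library totals ran from 17142397 to 28476019 counts in DS38 and from 18878556 to 25582159 counts in DMSO. All 12 granule neuron progenitor markers were detected, with a summed level of 2462 to 2533 CPM in DS38 libraries and 2405 to 2476 CPM in DMSO libraries, where CPM is the usual depth-scaled count with TMM factors applied. The sums were close although members differed: 5 of the 12 rose, 4 fell and 3 did not pass edgeR's test. Of all tested genes, 18.8% rose and 20.7% fell. Atoh1 averaged 432 ± 4.54 CPM in DS38 and 284 ± 10.6 CPM in DMSO, whereas Hhip averaged 43.5 ± 3.06 CPM in DS38 and 122 ± 7.83 CPM in DMSO (SD, n = 4 each). Markers of other cells were low, apart from Pdgfra in the fibroblast list. The 6 microglia and leukocyte markers summed to 0.251 to 0.520 CPM in DS38 and 0.153 to 0.435 CPM in DMSO with Cx3cr1 at 0 counts, the 4 endothelial markers to 1.45 to 1.79 CPM in DS38 and 0.802 to 1.79 CPM in DMSO with Cldn5 at 0, and the 4 globin genes had no count. The 6 astrocyte and oligodendrocyte markers summed to 5.46 to 6.28 CPM in DS38 and 3.48 to 5.01 CPM in DMSO. The 6 fibroblast markers summed to 53.2 to 57.2 CPM in DS38 and 74.2 to 78.8 CPM in DMSO, nearly all of it from Pdgfra. The part of these shifts in the results was not tested, and in bulk RNA a changed number of cells of a type and a changed amount of RNA per cell cannot be told apart.

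Part of the mitochondrial genome also lies in the nucleus, so some coding genes have near-identical copies there. In GENCODE M21 transcripts, whose build is earlier than the GRCm39 of the submitters' processing notes, mt-Co2 was identical over 681 bases to the pseudogene Gm28661, mt-Atp6 over 678 bases to Gm10925, mt-Co3 over 783 bases to Gm28437 and mt-Nd4l over 294 bases to Gm10222. The first 876 bases of mt-Nd4, of 1378, were identical to Gm28439. mt-Nd3 differed from Gm28438 at 1 of 345 bases, T3C counted from the 5′ end of mt-Nd3. All of these unprocessed pseudogenes are annotated on chromosome 1, as neighbours in the order of the mitochondrial genes. The start of the mt-Nd3 pair is shown because its single difference, in capitals, is the only one in all 345 bases compared.
mt-Nd3: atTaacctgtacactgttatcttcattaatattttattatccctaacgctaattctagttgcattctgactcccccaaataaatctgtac
Gm28438: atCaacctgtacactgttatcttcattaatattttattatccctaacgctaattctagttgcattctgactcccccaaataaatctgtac

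Coding genes also overlap each other. The last 43 bases of mt-Atp8 are the first 43 bases of mt-Atp6, marked in capitals in the start of mt-Atp6, and mt-Nd4l and mt-Nd4 share 7 bases. Reads in such overlaps can belong to either gene.
mt-Atp6: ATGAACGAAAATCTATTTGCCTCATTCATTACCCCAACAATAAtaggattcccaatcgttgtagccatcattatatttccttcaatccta

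Of all windows of 100 bases, 99.5% in mt-Co2, 99.5% in mt-Atp6, 99.85% in mt-Co3, 97.6% in mt-Nd3 and 98.5% in mt-Nd4l also occurred letter for letter in an annotated transcript of a nuclear gene. The value was 60.8% in mt-Nd4, 30.8% in mt-Co1 and 3.19% in mt-Nd2. It was 0 in the 2 rRNA genes and in mt-Nd1, mt-Nd5, mt-Nd6, mt-Cytb and mt-Atp8. With windows of 50 bases the value was 62.2% in mt-Nd4, 51.1% in mt-Co1, 8.19% in mt-Nd2, 7.61% in mt-Nd5 and 1.04% in mt-Rnr2. At that length it was still 0 in mt-Rnr1, mt-Nd1, mt-Nd6, mt-Cytb and mt-Atp8. No annotated transcript of this kind holds mt-Atp8, but mt-Atp8 lies between mt-Co2 and mt-Atp6 in the genome order. Whether reads that match several places were counted is not given in the sources used here.

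Levels differed widely along this map. Per kilobase of gene length, DS38 means were 2475 ± 240 CPM for mt-Co1, 1826 ± 110 for mt-Cytb, 1637 ± 50.8 for mt-Nd1 and 1068 ± 49.2 for mt-Nd2 (SD, n = 4). The next levels per kilobase in DS38, 663 ± 60.4 CPM for mt-Nd6, 653 ± 59.3 for mt-Nd5 and 528 ± 48.1 for mt-Nd4, had neighbouring spreads, and mt-Nd6 and mt-Nd5 did not differ beyond them. The 6 neighbouring genes from mt-Co2 to mt-Nd4l reached 29.2 to 101 CPM per kilobase in DS38 and 22.5 to 84.5 CPM per kilobase in DMSO. The other 7 coding genes reached 528 to 2475 CPM per kilobase in DS38 and 369 to 1965 CPM per kilobase in DMSO, so the ranges were far apart in either group. This grouping of 6 and 7 was made after the values were seen. The low genes are those with near-complete nuclear copies together with mt-Atp8, and the part of shared sequence in their levels was not tested.

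**Figure D1:**
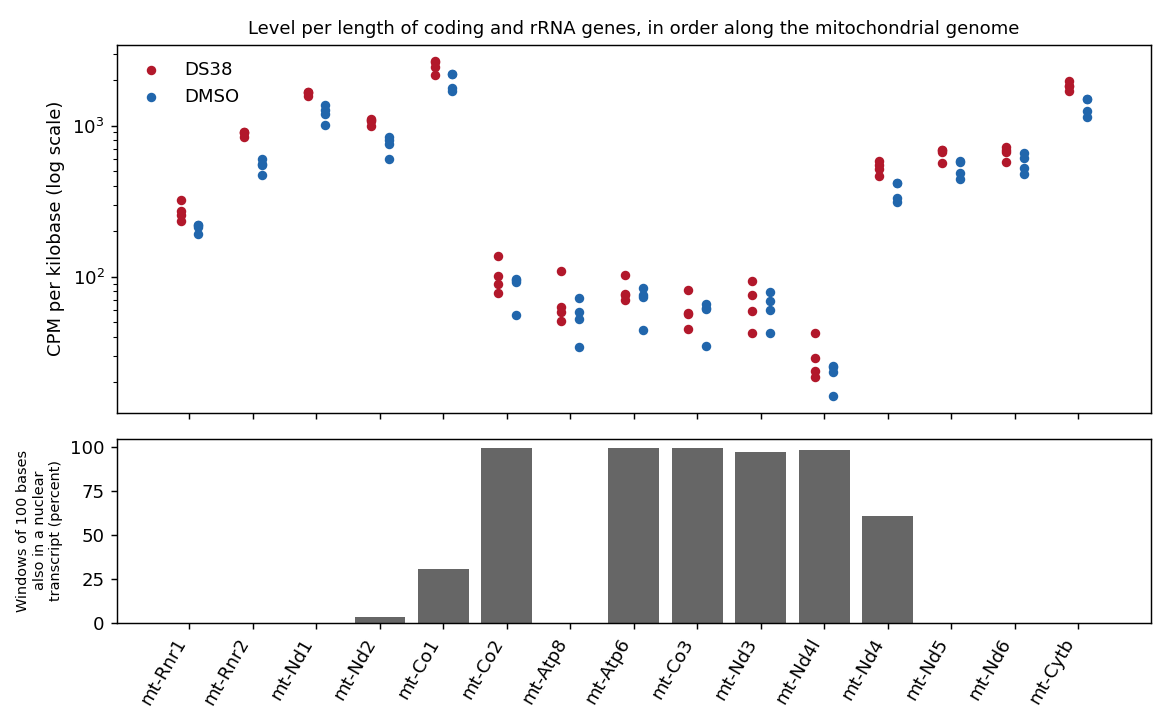
Top, level per length in CPM per kilobase on a log scale for the 13 coding and 2 rRNA genes in genome order, 1 point per library, DS38 left of DMSO. Bottom, percent of each gene's windows of 100 bases that also occur in an annotated nuclear transcript. The 6 genes from mt-Co2 to mt-Nd4l stand below the other 9 genes in every library.

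Several nuclear copies had levels near those of the mitochondrial genes they match. mt-Nd4l averaged 29.2 CPM per kilobase in DS38 and 22.5 in DMSO, beside 31.6 in DS38 and 22.3 in DMSO for Gm10222. mt-Nd3 averaged 67.9 CPM per kilobase in DS38 and 62.5 in DMSO, beside 63.7 in DS38 and 44.3 in DMSO for Gm28438. For mt-Atp6 the copy Gm10925 was the higher of the pair, at 123 CPM per kilobase in DS38 and 98.6 in DMSO beside 81.1 in DS38 and 69.2 in DMSO for mt-Atp6. By contrast mt-Nd4, of which 60.8% of windows are shared, stood far above its copy Gm28439, which had 27.1 CPM per kilobase in DS38 and 19.4 in DMSO. Of 8 predicted genes listed as similar to mitochondrial DNA, 1 rose and 7 did not pass the test, where 18.8% of all tested genes rose, so the count does not set the copies apart. The riser was Gm28438, with a log2 change of 0.53 ± 0.167 SE (edgeR adjusted p = 0.0351). Gm10222, found through its sequence, had a similar value (log2 change 0.52, edgeR adjusted p = 0.0435).

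By class, coding and rRNA genes took a larger share of every DS38 library than of any DMSO library. The 13 coding genes held 1.18%, 1.191%, 1.131% and 1.013% of counts in DS38 libraries 1 to 4, against 0.693%, 0.778%, 0.926% and 0.915% in DMSO libraries 1 to 4. The means were 1.13% ± 0.0814 in DS38 and 0.828% ± 0.1125 in DMSO (SD, n = 4 each), a ratio of 1.36. The 2 rRNA genes held 0.174%, 0.170%, 0.175% and 0.158% in DS38, against 0.0902%, 0.1075%, 0.113% and 0.106% in DMSO. Their means of 0.169% ± 0.00788 in DS38 and 0.104% ± 0.00982 in DMSO gave a ratio of 1.625. The groups did not overlap for either class, and DMSO library 1 was the lowest of all in both. The 22 tRNA genes held 0.00281% ± 0.000393 in DS38 and 0.00236% ± 0.000187 in DMSO, and their groups overlapped because DS38 library 4, at 0.00224%, lay below 3 DMSO libraries. As sums over members, these shares were not tested.

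**Figure D2:**
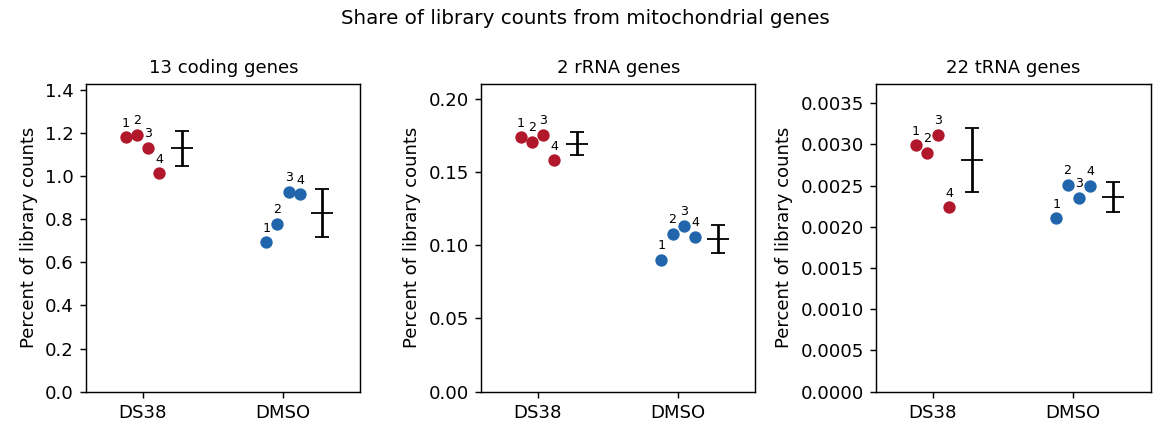
Percent of all counts of a library that fell on the coding, rRNA and tRNA genes of the mitochondrial genome, 1 numbered point per library, with mean and SD beside them. DS38 libraries lie above every DMSO library for coding and rRNA genes but not for tRNA genes.

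The unnamed identifier ENSMUSG00000119584 took a variable share of counts, 0.351%, 0.556%, 1.91% and 1.47% in DS38 libraries 1 to 4, against 1.60% to 2.34% in DMSO. With it left out of the totals, a setting chosen after seeing the data, the log2 ratio of the shares was 0.43 for coding and 0.69 for rRNA genes, against 0.45 and 0.70 with it.

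The comparison of single genes asks which mitochondrial transcripts differ after 5 days with the compound. With edgeR's quasi-likelihood test at a Benjamini-Hochberg adjusted p under 0.05 over 15133 genes, 6 of 13 coding genes rose, 0 fell and 7 did not pass, beside a background of 18.8% of tested genes rising, 20.7% falling and 39.5% changing in either direction. Risers were 47.5% of all called genes, and 64.3% under scaling by library totals without TMM, where 6 coding genes were called. Both rRNA genes rose. Of the 22 tRNA genes, 10 passed the filter on low counts, of which 5 rose, 0 fell and 5 did not pass. Among these risers, mt-Te, mt-Ty and mt-Th had DMSO means of 0.41, 0.34 and 0.58 CPM. They passed the filter through their DS38 libraries, so their rises and the tRNA median are no independent support for a rise of the class. The median log2 fold change was 0.33 over the 13 coding genes, 0.53 over the rRNA genes and 0.47 over the 10 tested tRNA genes, against -0.01 over all tested genes. In 4 coding genes and in both rRNA genes every DS38 library lay above every DMSO library, as in 17.3% of tested genes.

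**Figure D3:**
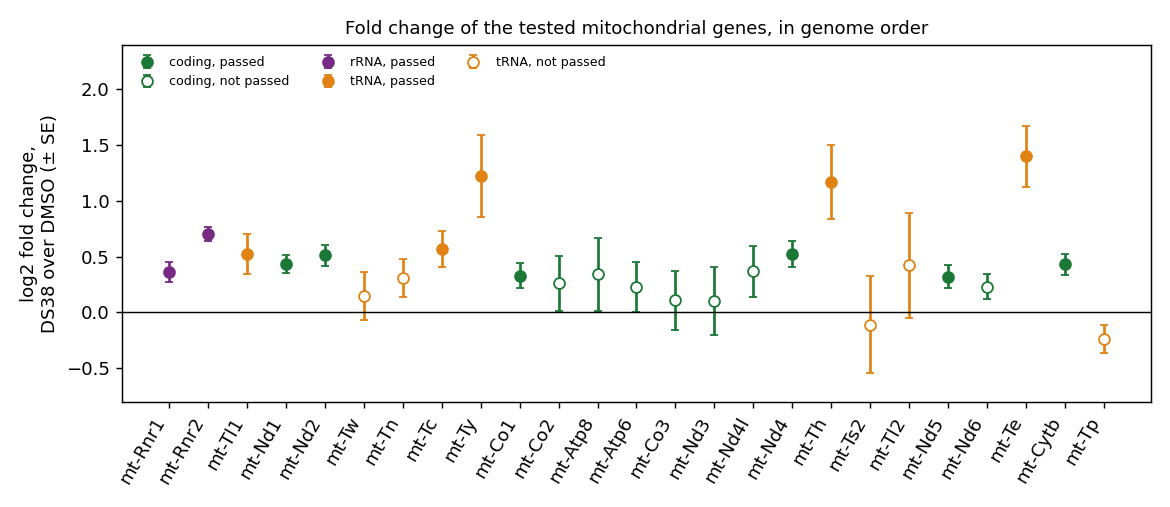
Log2 fold change, DS38 over DMSO, with its standard error for the 25 members that passed the filter on low counts, in genome order. Filled points passed edgeR's test. The largest errors are those of tRNA genes with few counts, while the more counted tRNA genes, such as mt-Tp, have errors below those of the 6 genes from mt-Co2 to mt-Nd4l.

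mt-Rnr2, the 16S rRNA of the large mitochondrial ribosomal subunit (ENSMUSG00000064339), had 1438, 1410, 1427 and 1330 CPM in DS38 libraries 1 to 4, against 744, 885, 957 and 867 CPM in DMSO libraries 1 to 4. The groups were well separated, with a fold of 1.62 (log2 change 0.70 ± 0.062 SE, edgeR adjusted p = 5.09e-07). mt-Rnr1, the 12S rRNA of the small subunit (ENSMUSG00000064337), had 246, 259.5, 305 and 224.5 CPM in DS38, against 182, 210, 205 and 211 CPM in DMSO. Its rise was smaller, with DS38 library 4 just above the highest DMSO library (log2 change 0.36 ± 0.092 SE, edgeR adjusted p = 0.0143). Both rRNA genes kept their calls in all 19 other settings in which they were tested.

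Complex I, which passes electrons from NADH to ubiquinone, has the most mitochondrial subunits, mt-Nd1 to mt-Nd6 and mt-Nd4l. mt-Nd2 had 1120, 1131, 1147 and 1033 CPM in DS38 libraries 1 to 4, against 622, 789, 873 and 832 CPM in DMSO, with no overlap (log2 change 0.51 ± 0.097 SE, edgeR adjusted p = 0.00337). mt-Nd1 had 1607, 1565, 1595 and 1499 CPM in DS38, against 960, 1149, 1315 and 1218 CPM in DMSO. DMSO library 1 was the lowest for both, and the mt-Nd1 groups did not overlap (log2 change 0.43 ± 0.080 SE, edgeR adjusted p = 0.00141). mt-Nd4, a membrane subunit on the proton path, had 757, 798, 712 and 643 CPM in DS38, against 428, 460, 571 and 574 CPM in DMSO. Its groups did not overlap either, although DS38 library 4 came close to the upper DMSO libraries (log2 change 0.52 ± 0.117 SE, edgeR adjusted p = 0.0106).

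mt-Nd5, another membrane subunit of complex I, had 1260, 1250, 1223 and 1030 CPM in DS38, against 812, 888, 1044 and 1060 CPM in DMSO. DS38 library 4 fell inside the DMSO range, and the call (log2 change 0.32 ± 0.101 SE, edgeR adjusted p = 0.0348) was lost without DS38 replicate 1 (adjusted p = 0.100), DS38 replicate 2 (0.0741), DS38 replicate 3 (0.0813) or DMSO replicate 2 (0.0896). mt-Nd6 is the only coding gene made from the light-strand transcript. It had 346, 373, 358 and 300 CPM in DS38, against 249, 270, 340 and 317 CPM in DMSO, and did not pass (log2 change 0.23 ± 0.113 SE, edgeR adjusted p = 0.153). It was called higher without DMSO replicate 3 (adjusted p = 0.0466), with limma-voom (0.0417) and in the non-robust edgeR fit (0.0445). Its groups overlapped through DS38 library 4. mt-Nd3 (log2 change 0.10 ± 0.303 SE) and mt-Nd4l (0.37 ± 0.229 SE), which lie in the copied stretch, did not pass either.

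mt-Cytb, the cytochrome b subunit of complex III, had 2084, 2248, 2085 and 1939 CPM in DS38 libraries 1 to 4, against 1304, 1427, 1726 and 1726 CPM in DMSO. The groups did not overlap (log2 change 0.43 ± 0.093 SE, edgeR adjusted p = 0.00489). mt-Co1, the catalytic subunit of complex IV and the most counted member, had 4112, 4098, 3760 and 3323 CPM in DS38, against 2612, 2728, 3417 and 3386 CPM in DMSO. DS38 library 4 lay below 2 DMSO libraries. The rise of mt-Co1 (log2 change 0.33 ± 0.108 SE, edgeR adjusted p = 0.0386) was lost in 8 of 19 other settings. It was lost without DS38 replicate 1 (adjusted p = 0.119), DS38 replicate 2 (0.0783), DS38 replicate 3 (0.0761), DMSO replicate 1 (0.0632) or DMSO replicate 2 (0.0802).

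The other subunits of complex IV and both of the ATP synthase lie in the copied stretch and none passed the test. mt-Co2, which receives electrons from cytochrome c, had 53.4, 68.6, 93.8 and 61.3 CPM in DS38, against 38.2, 64.5, 62.6 and 65.8 CPM in DMSO (log2 change 0.26 ± 0.246 SE). mt-Co3 averaged 47.1 ± 11.9 CPM in DS38 and 43.7 ± 11.2 CPM in DMSO, and mt-Atp6, a subunit of the proton channel, 55.2 ± 9.77 CPM in DS38 and 47.1 ± 11.75 CPM in DMSO (SD, n = 4 each). mt-Atp8, a small subunit of the same complex, averaged 14.3 ± 5.29 CPM in DS38 and 11.1 ± 3.25 CPM in DMSO. In all 6 genes of the stretch DS38 library 3 was the highest and library 1 the lowest of DS38, and DMSO library 1 was the lowest of DMSO. In the other 7 coding genes DS38 library 4 was the lowest of DS38 and DMSO library 1 again the lowest of DMSO. The standard errors of the log2 fold change were 0.225 to 0.325 in the 6 genes and 0.080 to 0.117 in the 7. With the replicate number in the fit as a block they were 0.086 to 0.1865 in the 6 and 0.068 to 0.1245 in the 7.

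Some members were set against each other within a library, which needs no scaling between libraries. There were 5.845, 5.43, 4.68 and 5.92 mt-Rnr2 counts per mt-Rnr1 count in DS38 libraries 1 to 4, against 4.08, 4.215, 4.67 and 4.105 in DMSO libraries 1 to 4. The groups touched almost at DS38 library 3 and DMSO library 3. mt-Nd4 counts per mt-Co1 count averaged 0.190 ± 0.00482 in DS38 and 0.167 ± 0.00249 in DMSO, with no overlap (SD, n = 4 each). mt-Cytb counts per mt-Nd6 count averaged 6.09 ± 0.268 in DS38 and 5.26 ± 0.152 in DMSO, also with no overlap. mt-Nd5 counts per mt-Nd6 count averaged 3.46 ± 0.126 in DS38 and 3.24 ± 0.119 in DMSO, where the nearest libraries were at 3.353 and 3.346. mt-Rnr2 counts per count of the 7 coding genes outside the copied stretch averaged 0.129 ± 0.00557 in DS38 and 0.105 ± 0.00814 in DMSO, with no overlap, whereas mt-Nd2 counts per mt-Co1 count, at 0.291 ± 0.0197 in DS38 and 0.257 ± 0.0226 in DMSO, overlapped. These 6 ratios were all that were computed, were chosen after the values were seen and were not tested. Their lack of overlap may follow from that choice. Of windows of 100 bases, 60.8% in mt-Nd4 and 30.8% in mt-Co1 also occur in a nuclear transcript. The part of shared sequence in the ratios that use these genes was not tested.

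**Figure D4:**
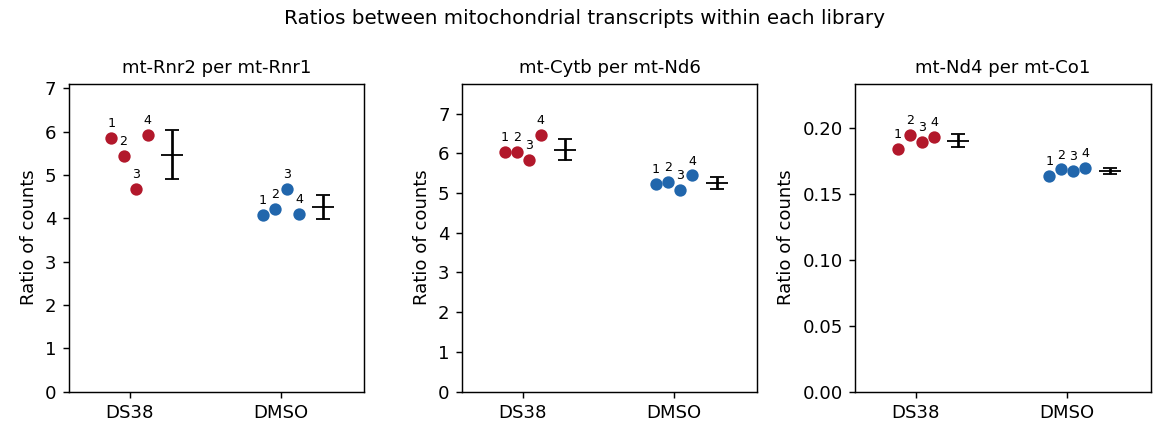
Ratio of counts for 3 of the 6 pairs of mitochondrial transcripts, 1 numbered point per library, with mean and SD beside them. All DS38 libraries lie above all DMSO libraries in each pair drawn, by the smallest margin for mt-Rnr2 per mt-Rnr1.

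Transfer RNAs gave few reads. Of 13 listed nuclear RNAs without a poly(A) tail, 7 were matched. Together the matched ones had 4 to 15 counts per DS38 library and 4 to 13 per DMSO library. The unmatched entries included Rn18s-rs5, Rn7sk, Rn7s1 and Rn7s2, so these counts do not describe such RNAs as a whole. All 22 tRNA genes together had 2476 counts in DS38 and 2066 in DMSO. How reads that reach from a tRNA gene into its neighbour were assigned is not given in the sources used here. The 5 tRNA genes that rose are shown with the anticodon in capitals, located as the known triplet after a T in the middle of the molecule. They read the codons of glutamate, tyrosine, cysteine, histidine and one family of leucine codons, in the order given.
mt-Te: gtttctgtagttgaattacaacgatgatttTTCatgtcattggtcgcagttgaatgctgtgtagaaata
mt-Ty: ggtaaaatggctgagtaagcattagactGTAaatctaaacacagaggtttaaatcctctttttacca
mt-Tc: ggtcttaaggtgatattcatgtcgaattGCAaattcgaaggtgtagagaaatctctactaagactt
mt-Th: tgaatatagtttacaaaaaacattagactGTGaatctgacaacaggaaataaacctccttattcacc
mt-Tl1: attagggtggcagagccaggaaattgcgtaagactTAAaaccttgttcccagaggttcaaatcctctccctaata

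mt-Te had 24, 32, 21 and 20 counts in DS38 libraries 1 to 4, against 11, 7, 10 and 7 counts in DMSO libraries 1 to 4. In CPM the groups did not overlap (log2 change 1.40 ± 0.274 SE, edgeR adjusted p = 5.45e-04), and the call held in all 18 other settings in which mt-Te was tested. mt-Te is the neighbour of mt-Nd6 on the light-strand transcript. mt-Th had 45, 38, 21 and 15 counts in DS38, against 16, 9, 6 and 19 counts in DMSO (log2 change 1.17 ± 0.329 SE, edgeR adjusted p = 0.00901). The CPM of DS38 library 4, 0.7805, lay below the 0.970 of DMSO library 4.

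mt-Ty had 21, 27, 8 and 14 counts in DS38, against 8, 3, 10 and 7 counts in DMSO, with overlapping groups (log2 change 1.22 ± 0.368 SE, edgeR adjusted p = 0.0131). Its call was lost without DS38 replicate 2 (adjusted p = 0.0554) or DMSO replicate 2 (0.0553). mt-Tc averaged 4.18 ± 0.679 CPM in DS38 and 2.81 ± 0.510 CPM in DMSO (log2 change 0.57, edgeR adjusted p = 0.00942). mt-Tl1, which lies between mt-Rnr2 and mt-Nd1, averaged 2.90 ± 0.534 CPM in DS38 and 2.07 ± 0.329 CPM in DMSO (log2 change 0.52, edgeR adjusted p = 0.0288), a call lost without DS38 replicate 2 (adjusted p = 0.147), DMSO replicate 1 (0.0821) or DMSO replicate 2 (0.0871), and under DESeq2 (0.0517). Among tested tRNA genes, 3 of 5 on the light-strand transcript and 2 of 5 on the heavy-strand transcript rose, where 18.8% of all tested genes rose. These risers include mt-Te, mt-Ty and mt-Th, which passed the filter through their DS38 libraries. The counts by strand are therefore no independent support for a rise on either strand. The strand is that of the annotated gene, since the strand setting of the counting is not given.

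mt-Tp, for proline, was the most counted tRNA gene and one of the 2 tested with a negative fold change. It had 8.92, 10.2, 12.6 and 8.07 CPM in DS38, against 9.83, 13.3, 11.6 and 12.04 CPM in DMSO, and did not pass (log2 change -0.24 ± 0.126 SE, edgeR adjusted p = 0.148). It was called lower without DS38 replicate 3 (log2 change -0.35, adjusted p = 0.0221) and without a filter on low counts (-0.25, adjusted p = 0.0464), the only one of the 25 tested members called lower in a setting that was run. mt-Tn (log2 change 0.31), mt-Tw (0.15), mt-Tl2 (0.42) and mt-Ts2 (-0.11) did not pass either. The 12 tRNA genes under the filter had 66 counts in DS38 and 50 in DMSO, and at most 44 counts each over the 8 libraries. The 5 tRNA genes between mt-Co1 and mt-Nd4, mt-Ts1, mt-Td, mt-Tk, mt-Tg and mt-Tr, had 2 counts in DS38 and 0 in DMSO. Of these, mt-Ts1, mt-Td and mt-Tg had no count in any library, nor had mt-Tf outside this stretch, which allows up to 0.175 CPM each in the shallowest library (3 counts, counting error only).

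Nuclear genes that transcribe, copy, process and translate the mitochondrial genome moved in both directions by small amounts. Of 74 tested over 5 lists, 7 rose, 12 fell and 55 did not pass, so that 25.7% changed beside a background of 39.5%, with a median log2 fold change of -0.04. With library totals alone, 13 rose and 10 fell, so the more frequent direction depends on the scaling. Of 12 transcription genes, 2 rose, 1 fell and 9 did not pass. The termination family genes Mterf4 (log2 change 0.23, edgeR adjusted p = 0.00672) and Mterf2 (0.29, adjusted p = 0.0137) rose, and Mterf1b fell (-0.42, adjusted p = 0.029), while the elongation factor gene Tefm did not pass (-0.16, adjusted p = 0.0862). Of 13 genes for replication and nucleotide supply, 0 rose, 2 fell and 11 did not pass. Polg, the catalytic subunit of the mitochondrial DNA polymerase, averaged 68.8 ± 2.61 CPM in DS38 and 82.5 ± 1.35 CPM in DMSO (SD, n = 4 each), or a log2 change of -0.26 (edgeR adjusted p = 7.00e-05). The nuclease and helicase gene Dna2 fell too (log2 change -0.28).

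Of 19 genes that process or modify mitochondrial tRNA and rRNA, 3 rose, 3 fell and 13 did not pass. The tRNA modification gene Trit1 (log2 change 0.25) and the rRNA methyltransferase gene Nsun4 (0.37) rose, and the methyltransferase genes Mrm1 (-0.39) and Trmt61b (-0.40) fell. Of 18 genes for RNA stability and decay, 2 rose, 4 fell and 12 did not pass. Ptcd3, a pentatricopeptide protein gene of the mitochondrial ribosome, rose (log2 change 0.21), whereas the RNA granule gene Grsf1 (-0.25), Fastk (-0.31) and the oligonuclease gene Rexo2 (-0.24) fell. Of 13 translation factors, 0 rose, 2 fell and 11 did not pass, the falls being those of Oxa1l (log2 change -0.24), which inserts proteins into the inner membrane, and C1qbp (-0.18). Of 7 tested biogenesis regulators, 1 rose, 4 fell and 2 did not pass. The background for each of these lists was 18.8% of all tested genes rising and 20.7% falling. The transcription factor genes Nrf1 (log2 change -0.16) and Gabpa (-0.15) and the coactivator gene Pprc1 (-0.13) fell, and Gabpb1, the partner of Gabpa, rose (0.14).

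Among 15 mitochondrial chaperone and protease genes, 2 rose, 6 fell and 7 did not pass, where 18.8% of all tested genes rose and 20.7% fell. Hspa9, the matrix Hsp70 that pulls in imported proteins, averaged 701 ± 13.8 CPM in DS38 and 1029 ± 54.9 CPM in DMSO (SD, n = 4 each), or a log2 change of -0.55 (edgeR adjusted p = 1.41e-08). The matrix protease genes Lonp1 (log2 change -0.24) and Clpp (-0.33) and the chaperone gene Dnaja3 (-0.27) fell too. Of 15 genes for import, membranes and mass, 2 rose, 6 fell and 7 did not pass, beside the same background. The cristae gene Immt (log2 change 0.17) and the fusion gene Mfn2 (0.20) rose, and the channel gene Vdac2 (-0.19) and the import gene Timm23 (-0.21) fell.

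Among the nuclear partners of the mitochondrial subunits, falls outnumbered rises. Of 75 nuclear subunit genes, 2 rose, 31 fell and 42 did not pass, a share of 44.0% changed beside the background of 39.5%, with a median log2 fold change of -0.15. By direction, the background for these genes and for each complex was 18.8% of all tested genes rising and 20.7% falling. With library totals alone, 7 nuclear subunit genes rose and 25 fell, and without DS38 replicate 1, 6 rose and 27 fell. In complex I, 18 of 36 fell and 1 rose. Ndufa6, an accessory subunit, had the smallest p there, at 34.1 ± 1.70 CPM in DS38 and 47.0 ± 2.65 CPM in DMSO (SD, n = 4 each). Its log2 fold change was -0.47 (edgeR adjusted p = 1.94e-06). In complex II, which is wholly nuclear-encoded, 2 of 4 fell. In complex III, 3 of 9 fell and 1 rose. Uqcrq averaged 49.1 ± 5.17 CPM in DS38 and 78.0 ± 9.50 CPM in DMSO (SD, n = 4 each), or a log2 change of -0.67 (edgeR adjusted p = 7.91e-04), and Uqcrh rose (0.17, adjusted p = 0.0312). In complex IV, 3 of 11 fell, with Cox7a2 (log2 change -0.31), Cox8a (-0.27) and Cox5a (-0.22), and in complex V, 5 of 15 fell, among them the catalytic subunit gene Atp5b (-0.34), Atp5g2 (-0.33) and Atp5c1 (-0.24). Complexes II, IV and V had no riser. The difference in direction between mitochondrial and nuclear subunits is a description of these counts and was not tested.

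**Figure D5:**
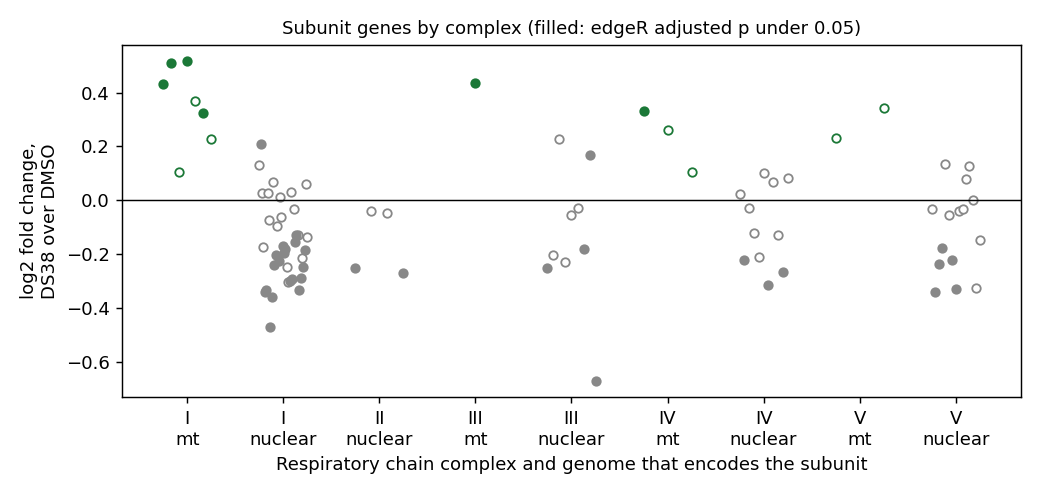
Log2 fold change, DS38 over DMSO, of each subunit gene by respiratory complex, with mitochondrially encoded genes in green and nuclear genes in grey, filled where edgeR's adjusted p was under 0.05. All 13 mitochondrial points lie above 0, and most of the filled nuclear points lie below it.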

How the data were processed

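The authors deposited whole-number read counts per gene, with gene lengths, for 8 mRNA libraries and without normalization. Alignment and counting tools listed in the submitters' processing notes are Subread 2.0.3, featureCounts and STAR 2.7.9a, with edgeR under R 4.1.0. They list builds GRCh38.p13 and GRCm39. No source used here gives strand or multiple-match settings, so reads from a gene and an antisense partner cannot be told apart.

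Of 55416 identifiers, 52083 matched a symbol, and 242 of 248 list entries were matched, 17 by an older symbol. The test was that of edgeR 4.0.16 under R 4.3.3 (quasi-likelihood, robust, TMM factors, filterByExpr minimum of 10 counts, Benjamini-Hochberg over 15133 genes), after a check on simulated counts. The SE of a log2 change was its size over the root of F. Class shares use plain library totals. Sequences and gene order come from GENCODE M21 (GRCm38), without coordinates. Libraries of a group differed beyond counting noise (chi-square per degree of freedom at least 3.98).

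Named genes were all members and up to 4 per list with the smallest p. Members and lists were chosen with earlier results of these data known. Alternatives were other scalings, DESeq2 1.42.0, limma-voom (limma 3.58.1), other filters, a non-robust fit, the replicate number as a block and leaving out each library.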

Additional observations from a re-analysis of the deposited data

Results flagged for a closer look

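Among 56 groups of 4 libraries examined, over the 25 tested members and the 3 class shares, 3 held a library far from the others, where chance flags about 1 in 20 groups. DMSO library 1 stood at 38.2 CPM for mt-Co2, with the other DMSO libraries at 62.6 to 65.8 CPM, and at 27.1 CPM for mt-Co3, with the others at 47.8 to 51.4 CPM. DS38 library 4 stood at 1030 CPM for mt-Nd5, with the other DS38 libraries at 1223 to 1260 CPM. Without DMSO library 1 the log2 fold change was 0.10 for mt-Co2, against 0.26 with it, and -0.08 for mt-Co3, against 0.11 with it, and neither gene passed the test in either fit. Without DS38 library 4 it was 0.39 for mt-Nd5, against 0.32 with it.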

How the results depend on the processing

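The 13 coding, 2 rRNA and 10 tRNA genes that could be tested were refitted under other settings. Of these values 427 kept direction and call, 22 lost the call, 7 gained one and 11 changed sign. The sign changes were all in genes without a call: mt-Co3 (-0.076 to 0.22 over the fits without 1 library), mt-Nd3 (-0.079 to 0.28), mt-Tw (-0.072 to 0.26), mt-Ts2 (-0.38 to 0.47, and 0.19 with limma-voom) and mt-Tl2 (-0.30 to 0.66, and -0.36 with DS38 and DMSO replicate 1 both left out, which was chosen after seeing the data). mt-Rnr1, mt-Rnr2, mt-Nd1, mt-Nd2, mt-Nd4, mt-Cytb, mt-Te and mt-Th kept their calls in every setting that tested them. Without a filter on low counts mt-Co1 (adjusted p = 0.164) and mt-Nd5 (0.0958) were not called, and mt-Nd4l was (0.0174). With replicate 1 of DS38 and of DMSO both left out, mt-Tc (0.0711), mt-Tl1 (0.0794), mt-Co1 (0.179) and mt-Nd5 (0.0979) were not called. A filter of 50 counts in 4 libraries left 3 rRNA and tRNA calls in place of 7, since it tested fewer genes. Class shares moved by less than the spread between libraries in all settings run on them.

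Library totals alone gave 13 risers and 10 fallers among nuclear genes of mitochondrial gene expression in place of 7 and 12, and 7 risers and 25 fallers among nuclear subunits in place of 2 and 31, and raised the share of risers among all called genes to 64.3%, against 47.5%. The nuclear subunit risers were 1 to 6 in fits without 1 library and 8 without both libraries numbered 1. The cause was not tested. Over all tested genes the replicate numbers did not pair the libraries (correlations of same-numbered deviations 0.362, -0.0908, 0.0704 and -0.169). Only library 1 of DS38 correlated best with its own number. In the 6 genes of the copied stretch, however, library 1 was the lowest in both groups. Their standard errors were smaller with the replicate block, at 0.086 against 0.265 in mt-Co3 and 0.1865 against 0.325 in mt-Atp8. Whether replicates shared an effect in these genes was not tested. With the replicate block 5594 of all genes were called, against 5980 without it, and mt-Co1 was not (adjusted p = 0.0681), whereas mt-Nd4l was (0.0341). Low counts limit the tRNA genes, of which 12 of 22 were under the filter, and the cause of the low counts was not tested.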
